A study of Homo sapiens with 11 samples.

Results

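Tropomyosins, leiomodins and tropomodulin are the proteins that run along the actin thin filament and cap or extend its pointed end. The 7 genes described here, TPM1, TPM2, TPM3, TPM4, TMOD1, LMOD2 and LMOD3, were chosen by name from the 19990 genes of a count table, and all 7 had counts in all 11 libraries. The cells were cardiomyocytes of the established human line WTC11 (induced pluripotent stem cells, passage 63), made in 1 differentiation with the GSK3 inhibitor CHIR99021 and then the Wnt inhibitor IWP2. In each group the medium was B27 with insulin, and the groups were 4 wells of Day 30, 3 of Day 60 and 4 of Day 113, which differ by no treatment or genetic change that the labels name. Poly(A) RNA was sequenced from each well. The comparison asks how these genes moved over prolonged culture.

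Tropomyosins are coiled-coil dimers that lie end to end along actin and, with troponin, set when myosin can bind. TPM1 gives the main sarcomeric tropomyosin of the human heart, and TPM2 a second muscle form. TPM3 and TPM4 give cytoskeletal forms among others, and each gene gives several proteins by alternative promoters and splicing. Tropomodulins cap the pointed end of the thin filament, while leiomodins, which share much of the tropomodulin fold, nucleate actin and favour longer filaments, with LMOD2 the main cardiac leiomodin and LMOD3 best known from skeletal muscle.

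The libraries held 24.1 to 34.5 M counts each (M, units of 1000000). No 2 wells of a day agreed within sampling noise (chi-square divided by its degrees of freedom, 11.4 to 84.0). The wells shared 1 differentiation, so the p-values measure only the spread between its wells, and collection and culture day cannot be told apart. In bulk RNA, fewer cells of a type and less RNA per cell cannot be told apart either. The cardiomyocyte label was checked against 10 markers (including TNNT2, MYH7 and ACTN2), which were all present and summed to 26414 to 39114 counts per 1000000 counts (CPM) at Day 30, 31436 to 38680 at Day 60 and 28382 to 32605 at Day 113. Markers of other cell types were also present and are given beside the genes below. Epithelial markers summed to 734 to 1197 CPM at Day 30, 433 to 570.1 at Day 60 and 68.3 to 207 at Day 113. Of the 6, 5 were lower by Day 60 (5.91% of all genes) and 3 fell after it (11.1%). The largest part of the sum was KRT19, with day means of 634, 457 and 117 CPM, which did not pass by Day 60 (adjusted p = 0.293).

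Promoter windows are shown for 4 genes that moved in different ways, so that the sequence upstream of their starts can be set side by side. RefSeq sequence (GRCh38.p14) was found for 7 of 7 genes, as 12 windows of 250 bases that end just before a start site. Capitals mark matches, on either strand, to the CArG box bound by SRF, to the GC box (GGGCGG) and to the E-box core (CAGCTG). TPM4 has 3 such windows and TPM2 has 2, and the most upstream of each was printed, for TPM4 because it was the one with a CArG box. The TPM4 window is chr19:16067288-16067537 on the plus strand, the TPM2 window chr9:35690057-35690306 on the minus strand, the LMOD2 window chr7:123655616-123655865 on the plus strand and the LMOD3 window chr3:69122596-69122845 on the minus strand.

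TPM4, fell and then rose: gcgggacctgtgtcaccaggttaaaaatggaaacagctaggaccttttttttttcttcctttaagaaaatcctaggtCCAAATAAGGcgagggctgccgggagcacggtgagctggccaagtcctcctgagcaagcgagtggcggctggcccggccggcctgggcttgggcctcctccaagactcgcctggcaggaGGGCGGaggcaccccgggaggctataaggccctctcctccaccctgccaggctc
TPM2, rose after Day 60: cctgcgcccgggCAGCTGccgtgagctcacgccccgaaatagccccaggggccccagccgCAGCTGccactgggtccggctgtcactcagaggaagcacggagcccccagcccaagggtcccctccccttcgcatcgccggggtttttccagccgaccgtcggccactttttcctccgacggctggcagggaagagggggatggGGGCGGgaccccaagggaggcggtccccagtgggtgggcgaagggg
LMOD2, fell by Day 60: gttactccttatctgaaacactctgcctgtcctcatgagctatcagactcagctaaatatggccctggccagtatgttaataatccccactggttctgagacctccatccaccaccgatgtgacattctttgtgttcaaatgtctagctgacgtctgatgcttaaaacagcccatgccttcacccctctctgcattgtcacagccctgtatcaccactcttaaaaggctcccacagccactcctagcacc
LMOD3, rose by Day 60: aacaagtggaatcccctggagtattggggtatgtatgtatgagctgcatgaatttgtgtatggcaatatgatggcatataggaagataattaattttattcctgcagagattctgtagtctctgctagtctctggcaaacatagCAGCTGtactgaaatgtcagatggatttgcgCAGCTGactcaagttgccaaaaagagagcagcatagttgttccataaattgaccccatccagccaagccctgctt

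Only the TPM4 window above, of the 12, held a CArG box, CCAAATAAGG, which began 173 bases before the start site. A CArG box was found in 1.16% of all 35116 RefSeq windows of this length, a GC box in 42.6% and the E-box core in 14%. LMOD3 had 2 E-box cores, beginning 106 and 75 bases before its start, and the printed TPM2 window had 2, at 238 and 190 bases. No match to any of these 3 motifs was found in the LMOD2 window. None of the 12 windows held a MEF2 box (in 2.8% of all windows) or the M-CAT element CATTCC (11.9%), and TATAAA (10.7%) was found in 1 of them, of TMOD1. The E-box was added after the sequences had been seen, and a match is a description of letters only. Counts were per gene, so which start site of a gene was in use was not measured.

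All 7 genes were expressed on all 3 days, in an order that spanned a wide range. Counts per gene cannot be compared between genes without their lengths, so levels were taken as CPM per kilobase (kb) of merged exons. On that scale the mean of the 11 wells was 363 ± 58.4 (SD, n = 11) for TPM1, 101 ± 33.5 for TPM2, 81.1 ± 6.68 for TMOD1, 74.9 ± 15.6 for LMOD2, 26.6 ± 8.30 for TPM4, 8.04 ± 2.37 for TPM3 and 3.62 ± 1.69 for LMOD3. TPM2, TMOD1 and LMOD2 lay within 1 SD of their neighbour in this order, whereas TPM1 stood above every other gene in every well. TPM1 and TPM4 have many alternative exons, and per kb of the longest transcript they came to 1180 ± 190 and 73.8 ± 23.1, with the same order of genes. TMOD1 varied least around its mean and LMOD3 most.

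**Figure D1:**
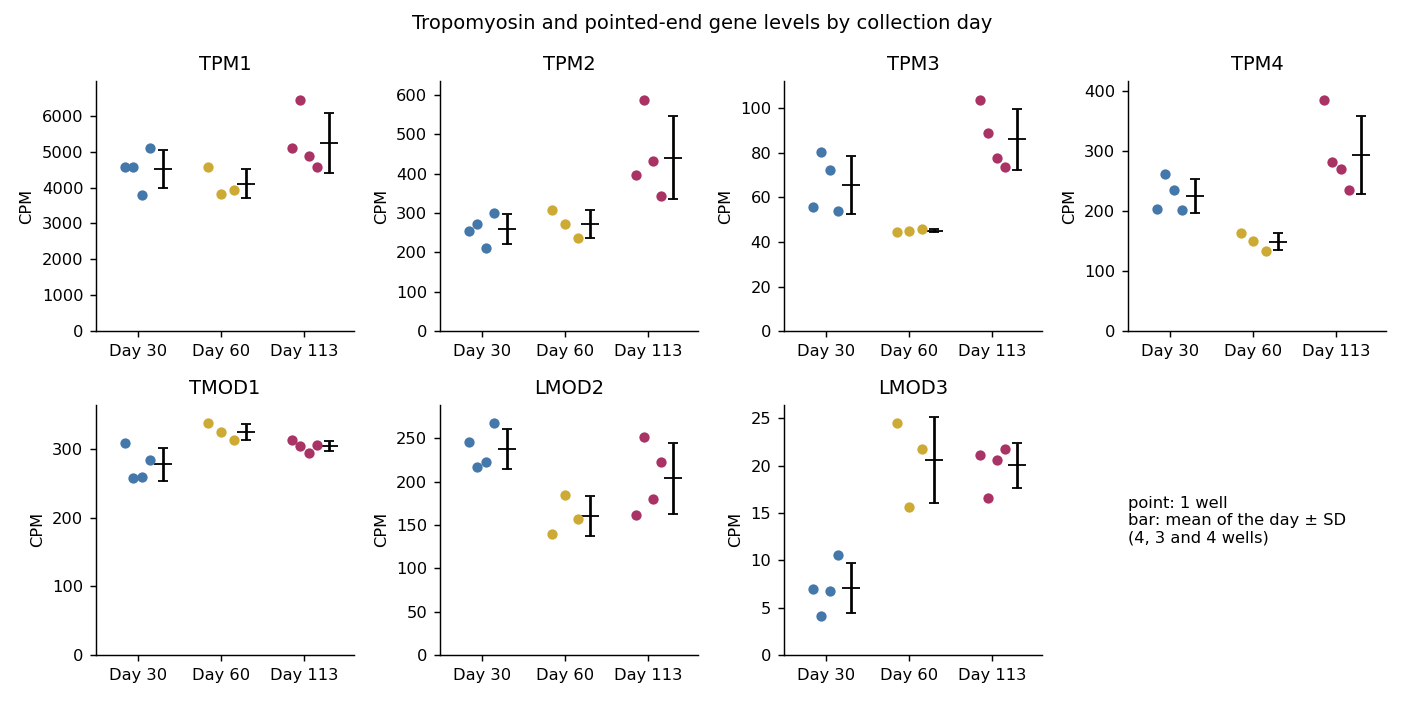
CPM of each gene (vertical axes, from 0) in every well of Day 30, Day 60 and Day 113, with 1 point per well and the mean ± SD of each day as a bar. TPM3 and TPM4 are lowest at Day 60, TPM2 is highest at Day 113, LMOD2 is lowest at Day 60 on average, and LMOD3 is at 4.14 to 10.5 CPM at Day 30 and at 15.6 or more afterwards.

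TPM1, the main cardiac tropomyosin, dominated the family throughout. TPM1 was measured at 4575, 4573, 3798 and 5101 CPM in Day 30 replicates 1 to 4, at 4561, 3819 and 3936 CPM in Day 60 replicates 1 to 3, and at 5106, 6449, 4873 and 4561 CPM in Day 113 replicates 1 to 4 (the same order of wells is used throughout). The 3 days overlapped, with replicate 2 of Day 113 the highest well. None of the 3 comparisons passed an adjusted p of 0.05, with log2 fold changes of -0.14 ± 0.13 (SE; adjusted p = 0.627) for Day 60 against Day 30, 0.35 ± 0.13 (0.068) for Day 113 against Day 60 and 0.22 ± 0.12 (0.193) for Day 113 against Day 30. The change after Day 60 passed without replicate 4 of Day 113 (adjusted p = 0.0465), with DESeq2 (0.0322) and with limma-voom (0.0493). TPM1 made up 89.1% ± 1.14 (SD, n = 4) of the counts of the 4 tropomyosin genes at Day 30, 89.8% ± 0.647 (n = 3) at Day 60 and 86.5% ± 1.01 (n = 4) at Day 113. These are shares of counts, not of molecules, since the genes differ in length, and the spliced forms of TPM1 were not separated.

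TPM2, the beta-tropomyosin gene of muscle, was higher at Day 113 than on both earlier days, between which no change passed. Its level was 255, 272, 211 and 301 CPM at Day 30, 308, 271 and 238 CPM at Day 60, and 397, 588, 433 and 344 CPM at Day 113. Every Day 113 well was above every earlier well, with replicate 2 again highest. TPM2 rose 1.62-fold from Day 60 to Day 113 (log2 fold change 0.69 ± 0.16, adjusted p = 0.00621) and 1.69-fold from Day 30 to Day 113 (0.76 ± 0.15, adjusted p = 0.000997). From Day 30 to Day 60 it differed by 0.07 ± 0.16 (adjusted p = 0.877), and the difference between the 2 intervals did not pass (0.63 ± 0.29, adjusted p = 0.2). Within each well TPM1 outnumbered TPM2 by 16.8 to 18.0 times in counts at Day 30, 14.1 to 16.6 times at Day 60 and 10.97 to 13.3 times at Day 113, with no overlap between days. TPM2 deviated from its day means together with TPM1 (r = 0.93 over 11 wells on log2 CPM). The rise came with smooth muscle markers, of which 7 of 8 were measured. Of the 7 measured, 5 rose from Day 60 to Day 113, where 12.9% of all genes rose. The marker not measured was MYH11. Their summed level was 691 to 999 CPM at Day 30, 839 to 1071 at Day 60 and 1093 to 1541 at Day 113, and over 11 wells it had r = 0.91 with TPM2 on the log2 scale (0.69 for deviations from the day means). The endothelial sum had 0.74 (-0.0018 within days), the skeletal muscle sum described below 0.39 (0.72) and the epithelial sum -0.71 (0.53). TPM1, which passed in no comparison, had r = 0.79 with the same smooth muscle sum (0.77 within days). The part of such cells in the TPM2 result was not tested.

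TPM3 and TPM4, whose products include cytoskeletal forms, followed a shared course that fell by Day 60 and rose past the starting level by Day 113. The spliced forms of these genes were not separated either. TPM3 was at 55.8, 80.5, 72.4 and 53.7 CPM at Day 30, at 44.4, 45.0 and 45.9 CPM at Day 60, and at 104, 88.7, 77.8 and 73.5 CPM at Day 113. All 3 Day 60 wells were below all 8 others, while Day 30 and Day 113 overlapped. TPM3 was 1.45-fold lower at Day 60 than at Day 30 (log2 fold change -0.54 ± 0.15, adjusted p = 0.0273) and then rose 1.91-fold (0.93 ± 0.15, adjusted p = 0.000392), ending above Day 30 by 0.39 ± 0.13 (adjusted p = 0.0336). The 2 intervals differed by 1.47 ± 0.27 (adjusted p = 0.00357).

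In TPM4 the wells gave 203, 261, 235 and 201 CPM at Day 30, 163, 150.4 and 134 CPM at Day 60, and 386, 282, 269.8 and 235 CPM at Day 113. Again every Day 60 well was below every other well, and replicate 1 of Day 113 was the highest for both genes. TPM4 was 1.51-fold lower at Day 60 than at Day 30 (-0.59 ± 0.15, adjusted p = 0.018), rose 1.97-fold by Day 113 (0.98 ± 0.15, adjusted p = 0.000317) and ended 0.38 ± 0.14 above Day 30 (adjusted p = 0.0411). The difference between its intervals was 1.57 ± 0.27 (adjusted p = 0.00259). Over the 11 wells TPM3 and TPM4 had r = 0.97 on log2 CPM, and r = 0.85 for deviations from the day means, as a description.

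The rise of TPM3 and TPM4 after Day 60 was called whichever well was left out, but the fall before it was not. For TPM3 the Day 60 against Day 30 call was lost without replicate 2 (adjusted p = 0.118) or 3 (0.0835) of Day 30 and without replicate 1 (0.105), 2 (0.0746) or 3 (0.0919) of Day 60. For TPM4 it was lost without replicate 2 of Day 30 (0.0781) and without replicate 2 (0.0535) or 3 (0.111) of Day 60. The rise over Day 30 was lost for TPM3 without replicate 1 (0.113) or 4 (0.11) of Day 30 and replicate 1 (0.106) or 2 (0.0563) of Day 113. For TPM4 that rise was lost without replicate 1 (0.118), 3 (0.064) or 4 (0.112) of Day 30, replicate 2 of Day 60 (0.053) or replicate 1 of Day 113 (0.149), and without this last well the change was 0.22 in place of 0.38. The annotation lists 8 pseudogenes named after TPM3, of which 1, TPM3P9, is in the table. TPM3P9 had 62 to 232 counts per well, and how reads shared by such copies were counted is not given in the sources used here.

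The summed fibroblast markers were also lowest at Day 60 and highest at Day 113, although single markers differed. All 8 fibroblast markers were measured, and their summed level was 3353 to 7707 CPM at Day 30, 2069.9 to 3570 CPM at Day 60 and 5431 to 13041 CPM at Day 113. From Day 30 to Day 60, 1 of the 8 (POSTN) rose and 3 fell (4.39% and 5.91% of all genes). From Day 60 to Day 113, 5 rose and 1 (PDGFRA) fell (12.9% and 11.1% of all genes). POSTN rose and PDGFRA fell in both intervals, and LUM ended below Day 30 (log2 fold change -1.27 ± 0.21, adjusted p = 0.000245). The sum was carried by COL1A1, COL1A2 and COL3A1, which made up 92.2 to 96.6% of it on the 3 days. COL1A1, a fibrillar collagen chain, rose by 1.93 ± 0.34 on the log2 scale from Day 60 to Day 113 (adjusted p = 0.000808). All 8 of 8 endothelial markers rose over that interval (12.9% of all genes), after 1 of 8 had fallen by Day 60 (5.91%). Their summed level was 49.7 to 80.3 CPM at Day 60 and 222 to 860 CPM at Day 113. Day 30 replicates 2 and 3 had the highest fibroblast sums of their day and the highest TPM3 and TPM4, and Day 113 replicate 1 was highest in fibroblast and endothelial markers and in both genes. Other wells differed. Day 113 replicate 3 had higher fibroblast and endothelial sums (11268.5 and 420 CPM) than replicate 2 (6758 and 366) but lower TPM3 and TPM4. Day 60 replicate 3 had the lowest fibroblast sum of its day, with the highest TPM3 but the lowest TPM4. The fibroblast sum of Day 30 replicate 4 (3353 CPM) lay within the Day 60 range, but its TPM3 and TPM4 were above every Day 60 well. Within Day 30 that well was the lowest in the fibroblast sum and in both genes. Over 11 wells the fibroblast sum had r = 0.94 with TPM4 and 0.91 with TPM3 on the log2 scale, and 0.83 and 0.71 for deviations from the day means. No fibroblast, endothelial or measured smooth muscle marker was at 0 in all wells of a day. The endothelial sum had r = 0.89 with TPM4 and 0.88 with TPM3 over the wells, and 0.83 and 0.65 within days. The part of these cells in the TPM3 and TPM4 results was not tested.

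**Figure D2:**
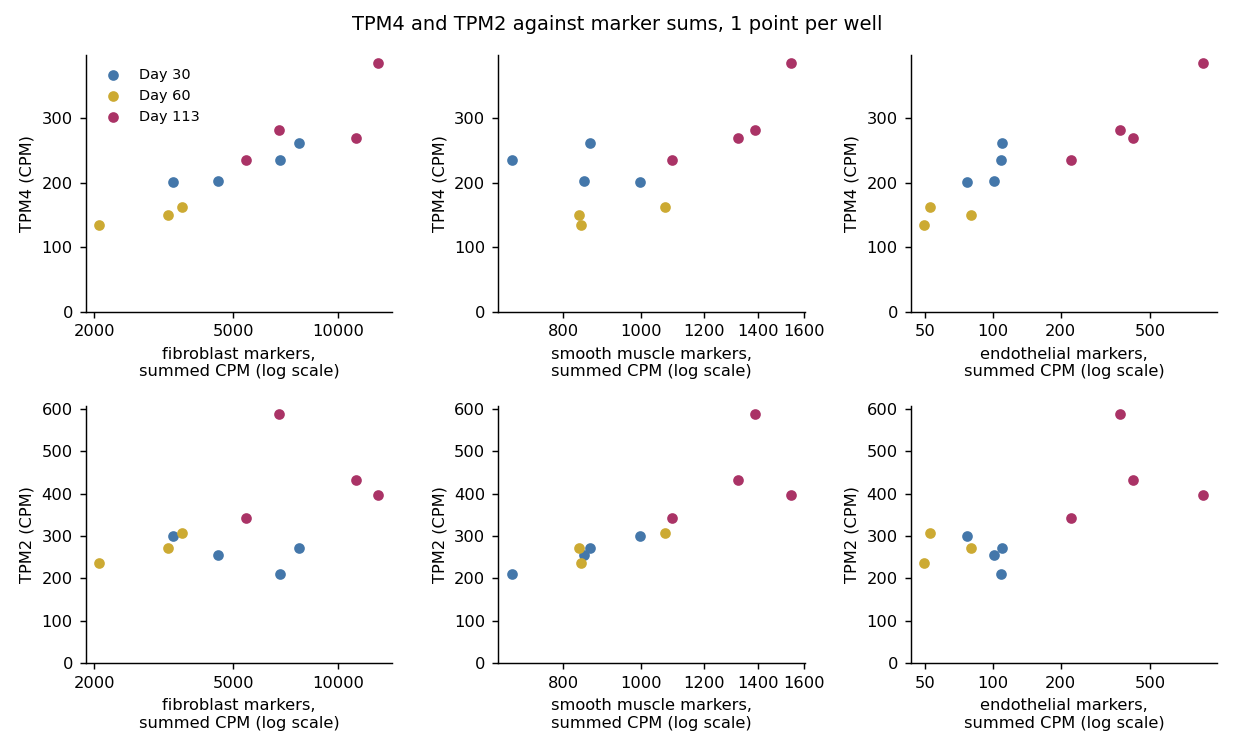
TPM4 (top row) and TPM2 (bottom row) in CPM against the summed CPM of fibroblast, smooth muscle and endothelial markers on log axes, with 1 point per well coloured by day. TPM4 is lowest in the 3 Day 60 wells, which also have low fibroblast sums (2069.9 to 3570 CPM), and highest in the Day 113 well with the highest fibroblast and endothelial sums.

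TMOD1, the tropomodulin that caps thin filaments in the heart, passed the test in no comparison. Its wells read 309, 259, 259.9 and 285 CPM at Day 30, 338, 325 and 314 CPM at Day 60, and 313, 305, 295 and 306 CPM at Day 113. The Day 60 wells were all above those of both other days, by a small margin. The log2 fold changes were 0.23 ± 0.09 (adjusted p = 0.134) for Day 60 against Day 30, -0.10 ± 0.09 (0.491) for Day 113 against Day 60 and 0.13 ± 0.08 (0.253) for Day 113 against Day 30. DESeq2 called the first of these (adjusted p = 0.039). Exons of TMOD1 share 1669 bases with TSTD2 on the opposite strand, and TPM1 shares 2070 bases with its antisense gene TPM1-AS. Whether counting used strand is not given in the sources used here, so some reads of these pairs cannot be told apart. TSTD2 was at 24.9 to 41.0 CPM and passed in no comparison, and TPM1-AS was at 36.1 to 88.2 CPM and lower at Day 113 than at Day 30 (-0.44 ± 0.15, adjusted p = 0.0284). The skeletal muscle sum, nearly all of it CKM as described below, had r = 0.88 with TMOD1 over 11 wells (0.63 within days). The cardiomyocyte sum had 0.47 (0.86 within days) and the smooth muscle sum 0.36 (0.43). The part of these cells in the TMOD1 levels was not tested.

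LMOD2, the cardiac leiomodin, was lower at Day 60. It stood at 246, 217, 223 and 268 CPM at Day 30, at 139.8, 185 and 157 CPM at Day 60, and at 161, 252, 180.0 and 222 CPM at Day 113. Day 60 lay wholly below Day 30, whereas Day 113 overlapped both. LMOD2 fell 1.48-fold from Day 30 to Day 60 (log2 fold change -0.57 ± 0.15, adjusted p = 0.0193), and the later changes, 0.35 ± 0.15 from Day 60 to Day 113 (0.0984) and -0.23 ± 0.13 from Day 30 to Day 113 (0.214), did not pass. The intervals differed by 0.92 ± 0.26 (adjusted p = 0.0394). The fall was lost without replicate 1 (adjusted p = 0.0504) or 4 (0.0545) of Day 30 and replicate 1 (0.127) or 3 (0.0972) of Day 60. In turn, the later rise passed without replicate 1 of Day 113 (0.0261), and a fall over Day 30 to Day 113 passed without replicate 2 of Day 113 (0.041). LMOD2 moved against the fibroblast sum within days (r = -0.73 for deviations from the day means) but not over all 11 wells (r = 0.07). The skeletal muscle sum described below had -0.60 (0.24 within days), the endothelial sum 0.06 (-0.50) and the epithelial sum 0.27 (0.37). The smooth muscle sum had -0.17 (-0.24 within days) and the cardiomyocyte sum -0.10 (-0.05). The part of these cells in the LMOD2 result was not tested.

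LMOD3, the leiomodin best known from skeletal muscle, had the lowest level per kb of the 7 genes and the largest fold changes of the 7 against Day 30. LMOD3 was at 6.95, 4.14, 6.78 and 10.5 CPM at Day 30, at 24.5, 15.6 and 21.8 CPM at Day 60, and at 21.2, 16.6, 20.6 and 21.8 CPM at Day 113, from 124 to 767 counts per well. All later wells were above all Day 30 wells, and Day 60 and Day 113 overlapped. LMOD3 rose 2.91-fold by Day 60 (log2 fold change 1.54 ± 0.24, adjusted p = 0.000695) and stood 2.82-fold above Day 30 at Day 113 (1.50 ± 0.23, adjusted p = 0.000111). From Day 60 to Day 113 the difference was -0.04 ± 0.24 (adjusted p = 0.925), and the intervals differed by -1.58 ± 0.41 (adjusted p = 0.024). The rise by Day 60 was called whichever well was left out, and the difference between intervals was lost without replicate 1 or 3 of Day 60, when only TPM3 and TPM4 (2 of 7 genes) passed that test. Of 10 skeletal muscle markers 6 were measured, and their sum, nearly all of it CKM, a creatine kinase that heart muscle also makes, was 249 to 346 CPM at Day 30, 484 to 694 at Day 60 and 391 to 520 at Day 113. CKM rose by 0.94 ± 0.14 by Day 60 (adjusted p = 6e-04), as LMOD3 did, while ACTN3, the alpha-actinin of fast skeletal fibres, did not pass by Day 60 and was 16.9-fold lower at Day 113 than at Day 60 (adjusted p = 9.52e-07). MYOD1, a myogenic regulator of skeletal muscle, had 0 counts in all 4 Day 30 wells and at most 30 in any later well. Its difference passed for Day 113 against Day 30 (adjusted p = 0.0157) but not for Day 60 against Day 30 (0.0847). MYOG, a second such regulator, had at most 2 counts at Day 30 and 12 to 35 at Day 60, which passed (adjusted p = 0.0173). At Day 113 MYOG had 6 to 23 counts, which also passed against Day 30 (0.0273). Over 11 wells the skeletal muscle sum had r = 0.80 with LMOD3 (0.25 within days) and the epithelial sum -0.74 (-0.49). The smooth muscle sum had 0.59 (0.29 within days) and the cardiomyocyte sum 0.02 (0.50). The part of such cells in the LMOD3 result was not tested.

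The 2 leiomodins moved in opposite directions by Day 60. Within each well LMOD2 outnumbered LMOD3 by 25.4 to 52.2 times in counts at Day 30, by 5.71 to 11.9 times at Day 60 and by 7.61 to 15.2 times at Day 113. The log2 ratio of LMOD3 to LMOD2 was -5.14 ± 0.43 (SD, n = 4) at Day 30, -2.97 ± 0.54 (n = 3) at Day 60 and -3.33 ± 0.43 (n = 4) at Day 113, and Day 30 overlapped neither later day. Against the capping gene TMOD1, LMOD2 had a log2 ratio of -0.22 ± 0.10, -1.03 ± 0.23 and -0.60 ± 0.30 on the 3 days, with Day 60 below Day 30 in every well. LMOD3 against TMOD1 had -5.36 ± 0.50, -4.00 ± 0.33 and -3.93 ± 0.18, with every later well above Day 30. Against ACTC1, the cardiac actin gene, LMOD2 had -4.12 ± 0.32 at Day 30 and -4.88 ± 0.39 at Day 113, which did not overlap, and TPM1 had 0.12 ± 0.25 and -0.19 ± 0.18, which did.

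**Figure D3:**
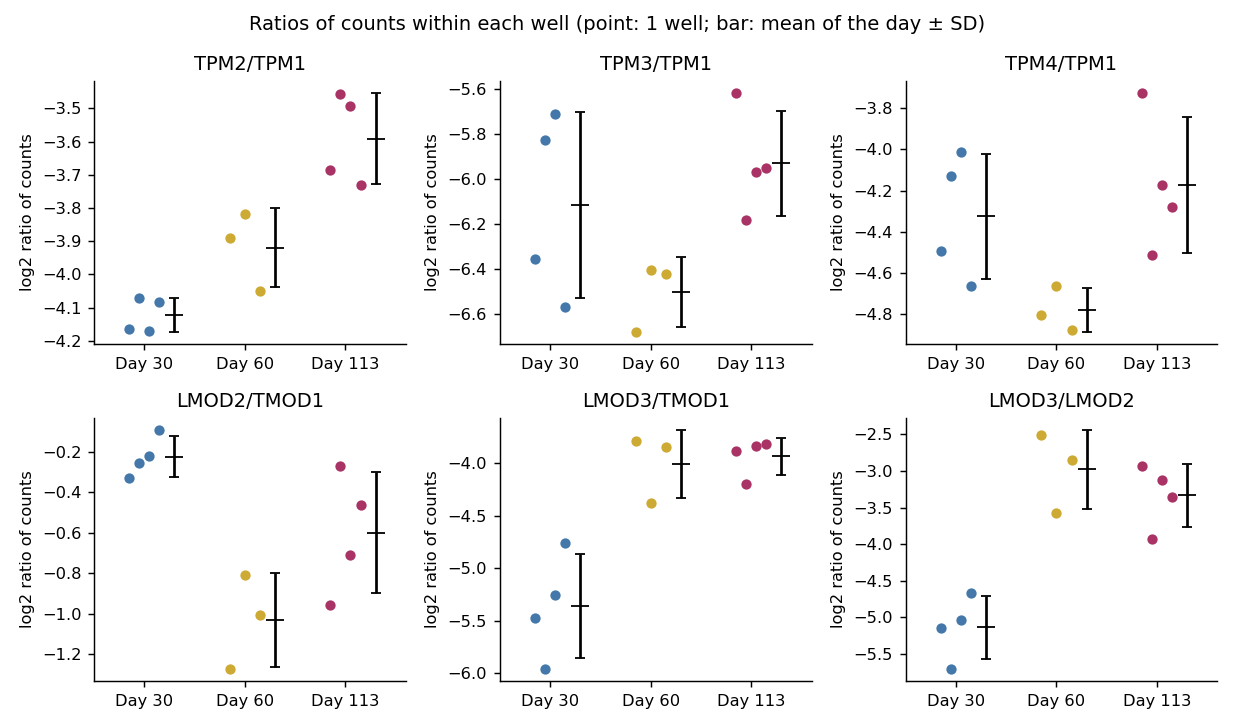
Log2 ratios of counts within each well (vertical axes) by day, with 1 point per well and the mean ± SD of the day as a bar. TPM2 gains on TPM1 on each later day, and LMOD3 relative to LMOD2 and TMOD1 is lower in the Day 30 wells than in any later well.

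By comparison, 1 of the 7 genes rose and 3 fell from Day 30 to Day 60, where 4.39% of all 19990 genes rose and 5.91% fell. Wells of the 2 days did not overlap for 5 of the 7, against 24.8% of all genes. From Day 60 to Day 113, 3 rose (12.9% of all genes) and 0 fell in edgeR's test (11.1%), nor did any fall at an unadjusted p of 0.05 or with DESeq2 or limma-voom, and 4 did not overlap (30.6%). From Day 30 to Day 113, 4 rose (17.3%) and 0 fell (17.2%), again with 0 at an unadjusted p of 0.05 and by the other tools, and 2 did not overlap (35.1%). Over the 3 days together 5 of 7 changed (37.1%), and 4 of 7 changed differently in the 2 intervals (9.34%). The genes were chosen with earlier results known, so these counts describe them only.

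**Figure D4:**
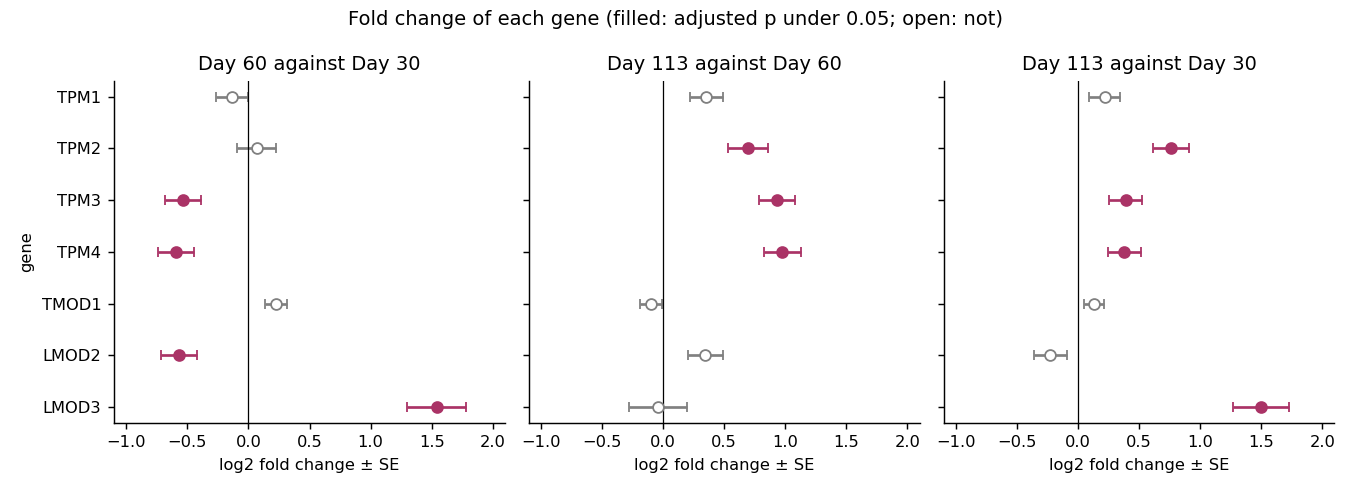
Log2 fold change ± SE (horizontal axes) of the 7 genes in the 3 comparisons of days, filled where the adjusted p was under 0.05. TPM3, TPM4 and LMOD2 lie below 0 and LMOD3 above it for Day 60 against Day 30, and TPM2, TPM3 and TPM4 lie above 0 for Day 113 against Day 60.

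The rest of the pointed-end family was measured too, except TMOD4, which was not analysed here. TMOD3, the widely expressed tropomodulin, rose by 0.78 ± 0.18 from Day 60 to Day 113 (adjusted p = 0.00581) and by 0.51 ± 0.17 from Day 30 to Day 113 (0.0267). LMOD1, the smooth muscle leiomodin, rose by 0.64 ± 0.13 (adjusted p = 0.00274) and 0.35 ± 0.12 (0.036) in the same comparisons. TMOD2, the neural form, differed by 0.63 ± 0.23 after Day 60 (0.063). From Day 30 to Day 60 the differences were -0.28 ± 0.18 for TMOD3 (adjusted p = 0.414), -0.29 ± 0.13 for LMOD1 (0.197) and -0.09 ± 0.23 for TMOD2 (0.888).

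Among 11 partners on the thin filament, 7 changed over the 3 days, against 37.1% of all genes, and 6 were higher (17.3% of all genes) and 1 lower (17.2%) at Day 113 than at Day 30. The median log2 fold change of the list over that span was 0.49, beside -0.02 for all genes. TNNI3, the adult cardiac troponin I, rose by 1.62 ± 0.14 by Day 60 (adjusted p = 5.76e-06) and stood 1.93 ± 0.14 above Day 30 at Day 113 (5.34e-08). NRAP, a protein of nascent myofibrils, rose by 1.47 ± 0.23 by Day 60 (0.00075), the same interval in which LMOD3 rose. ACTA2, smooth muscle actin, rose by 1.27 ± 0.16 after Day 60 (6.1e-05), as TPM2 did. TNNT1, slow skeletal troponin T, fell by 0.85 on the log2 scale in that interval (SE 0.19, adjusted p = 0.00406). ACTC1 did not pass in any comparison, with 0.49 ± 0.19 for Day 113 against Day 30 (0.0567).

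Of 20 genes of actin assembly and turnover, 8 rose from Day 60 to Day 113 (12.9% of all genes), with a median of 0.26 against 0.00 for all genes. By Day 60, 2 had risen (4.39% of all genes) and 1 had fallen (5.91%). CAPZA2, a subunit of the capping protein of the barbed end, rose in both intervals, by 0.41 ± 0.10 (adjusted p = 0.0128) and 0.48 ± 0.10 (0.00259). WDR1, a cofactor of actin disassembly, and CAP1, which recycles actin monomers, rose after Day 60 by 0.65 ± 0.10 (0.000304) and 0.82 ± 0.14 (0.000573). Both had non-overlapping lower levels at Day 60 than at Day 30 that did not pass, and both changed differently in the 2 intervals (adjusted p = 0.00757 and 0.00715). DSTN, destrin, rose by 0.42 ± 0.11 after Day 60 (0.0125).

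The list of Kelch adaptors moved against this direction, with 4 of its 5 genes falling from Day 60 to Day 113 (11.1% of all genes). The gene that did not fall was CUL3 (0.05 ± 0.09, adjusted p = 0.716), a cullin and not a Kelch protein. KLHL40, which is known to stabilise leiomodin 3 in skeletal muscle, was at 2.28 ± 0.936 CPM (SD, n = 4) at Day 30, 4.95 ± 1.58 (n = 3) at Day 60 and 1.20 ± 0.391 (n = 4) at Day 113. Its fall after Day 60 was 2.04 in size on the log2 scale (log2 fold change -2.04 ± 0.40, adjusted p = 0.00189), over the interval in which LMOD3 did not pass a change. KLHL41, a related adaptor of nebulin, fell by 0.88 over it (SE 0.11, adjusted p = 7.17e-05), and KLHL31 by 0.48 (SE 0.12, 0.00923). Before that, KLHL31 alone of the 5 had risen by Day 60 (0.40 ± 0.12, 0.0463), where 4.39% of all genes rose. From Day 30 to Day 113 only 1 of the 5, KLHL41, was lower (-1.08 ± 0.11, 1.86e-06), against 17.2% of all genes.

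Of 9 regulators that act through SRF, MEF2 or TEAD sites, 6 changed over the 3 days (37.1% of all genes). SRF, the factor that binds CArG boxes, rose by 0.76 ± 0.14 from Day 60 to Day 113 (adjusted p = 0.00137). Its coactivators MRTFA and MRTFB were lower at Day 113 than at Day 30, by -0.34 ± 0.08 (0.00538) and -0.49 ± 0.14 (0.0138). TEAD4, which binds M-CAT elements, fell by 0.50 (SE 0.13, adjusted p = 0.0225) and then rose by 0.45 ± 0.13 (0.0199). This is the same order of directions as in TPM3 and TPM4. TEAD1, of the same list, had the opposite order, with 0.34 ± 0.14 (0.151) and then -0.48 ± 0.14 (0.0232). Its day means were 272 to 379 CPM, against 18.0 to 25.5 CPM for TEAD4. Of 11 regulators of tropomyosin and sarcomere splicing, 4 changed, a share close to the 37.1% of all genes. MBNL1 was higher at Day 113 than at Day 30, by 0.68 ± 0.10 (8.74e-05), and QKI, MBNL2 and RBFOX2 were lower, by -0.60 ± 0.10 (0.000281), -0.58 ± 0.11 (0.000647) and -0.73 ± 0.14 (0.000998).

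The genes most like each member over the 11 libraries, among 11945 with a mean of at least 5 CPM, were ranked by Pearson's r on log2 CPM, as a description. For TPM3 they were ACTB (0.98), ARHGDIB (0.98) and PCDH1 (0.97), and for TPM4 they included SOX7 (0.97) and CHST1 (0.97). ACTB, cytoplasmic beta-actin, fell by 0.55 (SE 0.16, adjusted p = 0.0363) and then rose by 1.12 ± 0.16 (0.000173). TPM2 was most like URM1 (0.97), TUBB6 (0.96) and RRAGA (0.96), and TPM1 most like RNF220 (0.92), LRRC27 (0.92) and CCDC34 (0.92). LMOD3 was most like MYBL1 (0.95), NMRK2 (0.95) and ASAH1 (0.95), LMOD2 most like TAB1 (0.96), RDH10 (0.91) and RHBDD3 (0.90), and TMOD1 most like LOC101927789 (0.93), RHOQ (0.91) and CAMK2A (0.90). NMRK2, a nicotinamide riboside kinase of muscle, rose by 2.04 ± 0.26 by Day 60 (0.000154) and did not pass a change afterwards (0.22 ± 0.25, 0.593).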

How the data were processed

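RNA-seq libraries of 11 wells were grouped by the day in their labels. The authors deposited whole-number read counts for 19990 genes, with no normalization; STAR 2.5.3a, featureCounts 2.0.3 and hg38 are named in the submitters' processing notes, and strand setting and annotation are not given in the sources used here. The deposited TPM table was not used further, since count divided by TPM gave no constant gene length (median Spearman rho -0.0016 over 55 library pairs).

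Genes were tested with edgeR 4.0.16 in R 4.3.3 (quasi-likelihood F-test, TMM scaling, day as the only factor, all 11 libraries in 1 fit, Benjamini-Hochberg adjustment over 19990 genes, threshold 0.05). All adjusted p-values are from this test unless another tool is named. The filterByExpr step (minimum count 10) removed 0 genes. CPM used TMM library sizes, with factors of 0.966 to 1.04. Ratios within wells used a pseudocount of 0.5 and were given no test. Lengths, positions and upstream sequences came from GENCODE and RefSeq annotation.

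Named genes were the 7 members, up to 4 genes per list with the smallest p for any change, the pointed-end family and the 3 genes most correlated with each member; not every gene the rule selected is reported here. COL1A1, PDGFRA, CKM, ACTC1, MYOD1, MYOG, TEAD1, CUL3, KRT19 and the overlapping genes were named after their values were seen. Members and lists were chosen with earlier results of these data known. Alternatives were other scalings, DESeq2 1.42.0, limma-voom (limma 3.58.1), robust dispersions, other filters and thresholds, a replicate block, 2-day fits, and leaving out each well.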

Additional observations from a re-analysis of the deposited data

How the results depend on the processing

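Counts of the 7 genes called changed most with the threshold and with single wells. At an adjusted p of 0.01 the count was 1 in place of 4 for Day 60 against Day 30 (LMOD3), 2 in place of 4 for Day 113 against Day 30 (TPM2 and LMOD3) and 2 in place of 4 for the difference between intervals (TPM3 and TPM4). Leaving out 1 well gave 1 to 4 genes for Day 60 against Day 30, 3 to 4 for Day 113 against Day 60, 2 to 4 for Day 113 against Day 30, 4 to 5 for any change and 2 to 4 for the difference between intervals. LMOD2 left that last count without any 1 of the 4 Day 30 wells, without replicate 1 or 3 of Day 60 or without replicate 4 of Day 113 (2 or 3 genes called), and with upper-quartile scaling (3). It left the count for any change without replicate 1 or 3 of Day 60 (4 genes). The fits without a well had fewer samples, and the cause of the other losses was not tested.

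Directions reversed for 4 fold changes that were not called. Over the fits without 1 well, TPM2 for Day 60 against Day 30 ran from -0.021 (without replicate 3 of Day 30; -0.0087 without replicate 1 of Day 60) to 0.178. LMOD3 for Day 113 against Day 60 ran from -0.208 to 0.0915 (without replicate 1 of Day 60; 0.038 without replicate 2 of Day 113). In all, 405 recomputed fold changes of the 7 genes stayed on their side of the threshold, 26 lost and 6 gained a call, and the 250 recomputed ratios moved by less than 1 SD of the wells. Another scaling moved the median of all genes by at most 0.06 (log2).

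The replicate numbers were not taken to pair wells, since the labels give them no shared source. Same-numbered wells of different days had correlations of 0.022 to 0.158 in their deviations, all above 0, with 4 of 10 pairs over 0.1. Differently numbered wells of different days ran from -0.139 to 0.147. Of the 11 libraries, 7 correlated best with their own number, a hint of pairing from the data and not the design. With a replicate block the 7 genes gave the same counts, 4, 3, 4, 5 and 4, and over all genes the calls went from 2060 to 2474, 4790 to 4954, 6889 to 7143, 7411 to 7775 and 1868 to 2366. Depth limits LMOD3 most, with 124 counts in its lowest well. Groups of 3 or 4 wells of 1 differentiation leave a missed threshold uninformative about whether a gene changed.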
